A study of Homo sapiens with 6 samples.

Results

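The genes described here encode the kinase complexes that read ubiquitin chains on the way to NF-κB. They comprise NEMO (gene symbol IKBKG), the IKK catalytic subunits IKKβ (IKBKB) and IKKα (CHUK), the related kinase IKKε (IKBKE), the kinase TAK1 (MAP3K7) with its binding partners TAB1, TAB2 and TAB3, and the NF-κB inducing kinase NIK (MAP3K14). They were chosen by name and found by their gene numbers, and all 9 were among the 17149 genes listed and among the 11135 genes tested. RNA was collected 48 h after transfection of MDA-MB-231 cells with siRBCK1, a small interfering RNA against RBCK1, in 3 libraries, or with the control siRNA siControl in the other 3. MDA-MB-231 is an established human cell line from a triple negative breast tumour, and both groups are transfected cells of this single line. Which siRNA sequence against RBCK1 was used for these libraries is not given in the labels, and effects of lower RBCK1 and other effects of the siRNA cannot be told apart here. The labels also do not say that the libraries of a group came from separate cultures. The p-values therefore rest on how far these libraries vary, and that variation may be only technical.

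RBCK1 (also called HOIL-1) is a subunit of LUBAC, the ligase that joins ubiquitin head to tail into linear chains. NEMO binds linear chains and holds the IKK kinases there, while TAB2 and TAB3 bind chains linked through lysine 63 and bring in TAK1, which phosphorylates IKKβ. The active IKK complex marks the inhibitor IκB for destruction and so frees NF-κB. NIK and IKKα run a separate route, in which p100, the product of NFKB2, is cut to p52. These events take place between proteins, and the values below are levels of the mRNA of each subunit.

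RBCK1, the targeted gene, stood at 41.53, 46.15 and 45.61 FPKM in siRBCK1 libraries 1, 2 and 3, against 64.96, 63.62 and 73.37 FPKM in siControl libraries 1, 2 and 3. FPKM counts fragments scaled to transcript length and to the mapped total of a library, so levels of different genes can be set side by side per length. The groups did not overlap, and the mean in siRBCK1 cells was 66.0% of that in siControl cells. On the log2(FPKM + 1) scale the fold change, siRBCK1 over siControl, was -0.59 ± 0.07 (SE, n = 3 each, limma adjusted p = 6.55e-05). The mRNA of RBCK1 was thus lowered and not removed. In bulk RNA, fewer cells that express a gene and less of its RNA per cell cannot be told apart. Markers of the line were present, with VIM, for example, at 1893.74 FPKM or more in each library. ESR1, PGR and CDH1 were at 0.25 FPKM or less. ERBB2, at 11.66 to 18.42 FPKM, EPCAM, at 6.73 to 8.78 FPKM, and GATA3, at 4.07 to 5.99 FPKM, were also detected. Of the 9 listed markers of leukocytes, endothelium and fibroblasts, 7 were at 0.41 FPKM or less, the defining genes PTPRC, CD3E, CDH5 and DCN among them. The exceptions were CD14, at 1.89 to 2.27 FPKM in siRBCK1 cells and 3.11 to 3.44 FPKM in siControl cells, and COL1A1, at 5.84 to 5.89 FPKM in siRBCK1 cells and 3.7 to 4.2 FPKM in siControl cells. The 9 markers together summed to 8.65 to 8.99 FPKM in siRBCK1 cells and 7.64 to 7.93 FPKM in siControl cells, and their part in the results was not tested. Read totals are unknown, and the sums of FPKM per library were 587248.4 to 594194.1 in siRBCK1 cells, against 614082 to 659065 in siControl cells.

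Of the 9 complex genes, MAP3K7, TAB1 and TAB3 were higher in siRBCK1 cells, TAB2 and MAP3K14 were lower, and IKBKG, IKBKB, CHUK and IKBKE did not pass the test. A gene was called when its adjusted p from limma, over all tested genes, was under 0.05. These differences were small. The ratio of the mean FPKM in siRBCK1 cells to that in siControl cells ran from 75.3% for TAB2 to 128% for TAB3 among the called genes. They were also close in number to what the whole table shows, with 33.3% of the 9 genes higher and 22.2% lower, beside 36.8% and 17.1% of all tested genes. The groups did not overlap for 6 of the 9 genes (66.7%), against 62.8% of all tested genes. No complex gene passed the thresholds of an unadjusted p under 0.05 with a change over 1.5-fold, which 8.51% of all tested genes passed. An unadjusted p under 0.05 in limma was reached by 5 of the 9, with 3 higher and 2 lower. Of the 11135 tested genes, 4514 were higher and 2113 lower at that level. The median log2 fold change was -0.03 over the 9 genes and 0.11 over all tested genes.

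**Figure D1:**
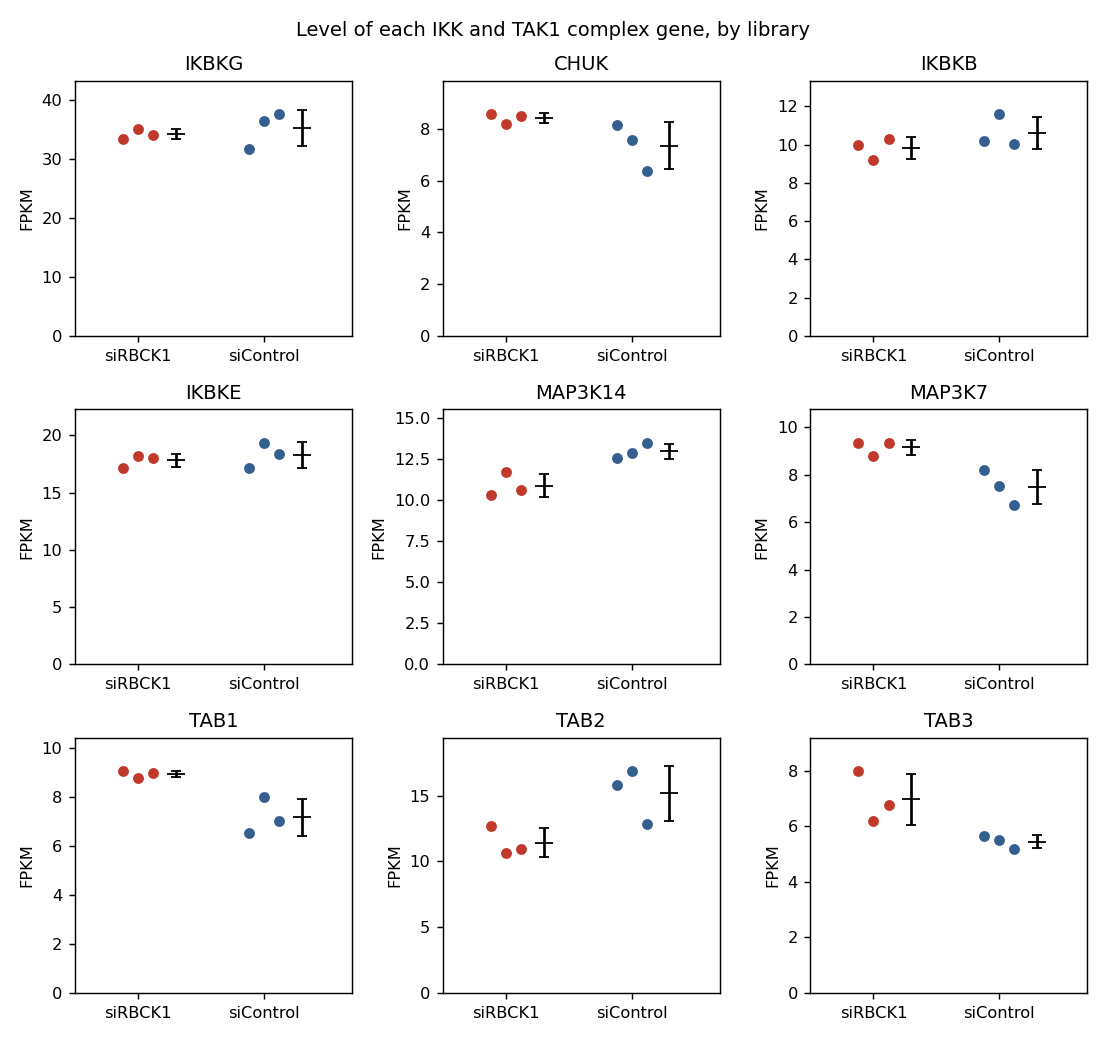
Level of each of the 9 complex genes in FPKM (vertical axis, from 0) in the 3 siRBCK1 libraries (left, red) and the 3 siControl libraries (right, blue), with 1 point per library in the order of replicates 1, 2 and 3 and the mean ± SD beside them. TAB2 and MAP3K14 lie lower and MAP3K7, TAB1 and TAB3 higher in siRBCK1 cells, while the points of IKBKG, IKBKB and IKBKE overlap.

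The levels of the subunits differed more between genes than between groups. IKBKG was the most abundant of the 9 mRNAs per length in both groups, followed by IKBKE, and TAB3 was the least abundant. In siRBCK1 cells the order by mean FPKM was IKBKG, IKBKE, TAB2, MAP3K14, IKBKB, MAP3K7, TAB1, CHUK and TAB3. The ranges of TAB2 and MAP3K14 overlapped there, as did those of the neighbours IKBKB, MAP3K7 and TAB1. In siControl cells CHUK stood before TAB1 in the order, and the ranges of MAP3K7, CHUK and TAB1 overlapped with those of their neighbours among them. For scale, the median tested gene had a mean of 10.98 FPKM, and the middle 50% of tested genes lay between 4.08 and 31.1 FPKM. All complex genes other than IKBKG therefore lay within that middle range, and IKBKG lay above it.

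IKBKG (gene number 8517) encodes NEMO, the subunit of IKK that has no kinase activity and binds linear chains. It lies on chromosome X, and the genome holds a near-identical pseudogene, IKBKGP1. How reads shared between these genes were counted is not given in the sources used here, so the level of IKBKG is uncertain to that extent. It was measured at 33.35, 35.01 and 34.05 FPKM in siRBCK1 cells, against 31.67, 36.35 and 37.5 FPKM in siControl cells. The values of the siRBCK1 libraries lay inside the range of the siControl libraries. The means were 34.1 ± 0.833 and 35.2 ± 3.09 FPKM (SD, n = 3 each), and the log2 fold change was -0.04, with a 95% interval of -0.19 to 0.11 (limma adjusted p = 0.651). The mRNA of the chain reader was thus not detectably different, and the interval leaves room for only a modest difference in either direction.

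CHUK (1147) encodes IKKα, the kinase shared by the canonical IKK complex and the NIK route, and lies on chromosome 10 of the GRCh38.p14 assembly, which all positions given here use, from 100186319 to 100229596. Its levels were 8.56, 8.19 and 8.5 FPKM in siRBCK1 cells, against 8.14, 7.55 and 6.37 FPKM in siControl cells. No siRBCK1 library lay under a control, but the lowest siRBCK1 library and the highest siControl library were nearly equal. Its log2 fold change of 0.18 had a 95% interval of -0.01 to 0.37 and did not pass (limma adjusted p = 0.108). Without siControl replicate 1, the highest control, it passed narrowly at an adjusted p of 0.0493.

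IKKβ, the main IκB kinase of the canonical route, is the product of IKBKB (3551). Its mRNA was at 9.96, 9.18 and 10.29 FPKM in siRBCK1 cells, against 10.21, 11.59 and 10.06 FPKM in siControl cells. Most libraries of both groups lay close together near 10 FPKM, apart from a high siControl replicate 2 and a low siRBCK1 replicate 2. The log2 fold change was -0.10, with a 95% interval of -0.27 to 0.07 (limma adjusted p = 0.281). This call depended on the scaling. IKBKB was lower at an adjusted p of 0.0129 with quantile normalization, 0.0363 with trimmed-mean scaling and 0.00657 with the length trend removed.

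IKBKE (9641), on chromosome 1 from 206470476 to 206496889, encodes IKKε, a kinase related to IKKβ that works with TBK1 in interferon signalling and is known as a breast cancer oncogene. It was the most abundant of the kinase genes in the set, at 17.18, 18.22 and 18.03 FPKM in siRBCK1 cells, against 17.14, 19.34 and 18.36 FPKM in siControl cells. The groups overlapped and the log2 fold change was -0.03, with a 95% interval of -0.18 to 0.11 (limma adjusted p = 0.675). It was lower only after removal of the length trend (adjusted p = 0.0416). Its partner kinase TBK1 was less abundant per length, with 5.25, 4.75 and 5.1 FPKM in siRBCK1 cells, against 6.37, 5.69 and 6.16 FPKM in siControl cells. TBK1 was lower in siRBCK1 cells by -0.23 on the log2 scale (limma adjusted p = 0.0286), with no overlap between the groups. That call was lost without siRBCK1 replicate 1 (0.0525), siRBCK1 replicate 2 (0.113), siRBCK1 replicate 3 (0.0771) or siControl replicate 1 (0.0902), and with no filter on low values (0.0504, all adjusted p).

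TAB2 (23118) had the largest difference of the 9 genes in either direction. It encodes the TAK1 adaptor whose zinc finger binds chains linked through lysine 63, and it lies on chromosome 6 from 149217926 to 149411607. Its level was 12.72, 10.66 and 10.91 FPKM in siRBCK1 cells, against 15.84, 16.86 and 12.83 FPKM in siControl cells. The groups did not overlap, although siRBCK1 replicate 1 and siControl replicate 3 came close to each other. The means were 11.4 ± 1.12 and 15.2 ± 2.10 FPKM (SD, n = 3 each), and the log2 fold change was -0.38 ± 0.10 (SE, limma adjusted p = 0.00982). Of all tested genes, 7.10% had a log2 fold change at or under that of TAB2. It passed in the same direction under each of the 13 alternative settings, with log2 fold changes of -0.56 to -0.30 and adjusted p-values up to 0.0393.

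TAB3 (257397), on chromosome X from 30827442 to 30889254, encodes the close relative of TAB2 that binds the same chains, and its mRNA was higher in siRBCK1 cells. Its level was 7.99, 6.19 and 6.76 FPKM in siRBCK1 cells, against 5.64, 5.52 and 5.2 FPKM in siControl cells. Each siRBCK1 library lay above each siControl library, and siRBCK1 replicate 1 lay furthest above. The log2 fold change was 0.30 ± 0.09 (SE, n = 3 each, limma adjusted p = 0.0179). Without siRBCK1 replicate 1 it no longer passed (adjusted p = 0.0932). Nor did it pass with quantile normalization (0.192), with trimmed-mean scaling (0.0625) or with the length trend removed (0.229).

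TAB1 (10454), on chromosome 22 from 39399780 to 39437132, encodes the partner that activates TAK1 without binding chains itself. It stood at 9.06, 8.8 and 8.97 FPKM in siRBCK1 cells, against 6.52, 8 and 7.02 FPKM in siControl cells. The siRBCK1 libraries lay within a narrow band above all 3 controls, and siControl replicate 2 was the control nearest to it. The log2 fold change was 0.29 ± 0.08 (SE, n = 3 each, limma adjusted p = 0.0127). Without siControl replicate 1 the adjusted p was 0.0515, just over the threshold. It was 0.173 with quantile normalization, 0.0576 with trimmed-mean scaling and 0.101 with the length trend removed.

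MAP3K7 (6885), on chromosome 6 from 90513579 to 90587072, encodes TAK1, the kinase that activates IKKβ and, through other kinases, JNK and p38. Its level was 9.32, 8.78 and 9.35 FPKM in siRBCK1 cells, against 8.2, 7.53 and 6.74 FPKM in siControl cells. All siRBCK1 libraries lay above all controls, and the controls spread more widely than the siRBCK1 libraries. On the log2 scale the fold change was 0.26 ± 0.08 (SE, n = 3 each, limma adjusted p = 0.0192). The call was lost without siRBCK1 replicate 1 (adjusted p = 0.0643) or without siRBCK1 replicate 3 (0.0735). Quantile normalization (0.197), trimmed-mean scaling (0.0722) and removal of the length trend (0.342) ended it too.

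MAP3K14 (9020), on chromosome 17 from 45263119 to 45317020, encodes NIK, which phosphorylates IKKα and starts the processing of p100. It was measured at 10.34, 11.72 and 10.66 FPKM in siRBCK1 cells, against 12.62, 12.87 and 13.52 FPKM in siControl cells. Each siRBCK1 library lay under each control, and the mean was 83.9% of that in siControl cells. On the log2 scale the fold change was -0.24 ± 0.07 (SE, n = 3 each, limma adjusted p = 0.0165). It passed in 11 of the 13 alternative settings, those of scaling and length included. The exceptions were the fits without siRBCK1 replicate 1 (adjusted p = 0.0760) and without siRBCK1 replicate 3 (0.0684). In the RefSeq annotation MAP3K14, TAB2, TAB3 and IKBKE each overlap an antisense gene, MAP3K14-AS1, TAB2-AS1, TAB3-AS1 and IKBKE-AS1. Strand-specific counting is not stated, so reads of these partners cannot be told apart.

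**Figure D2:**
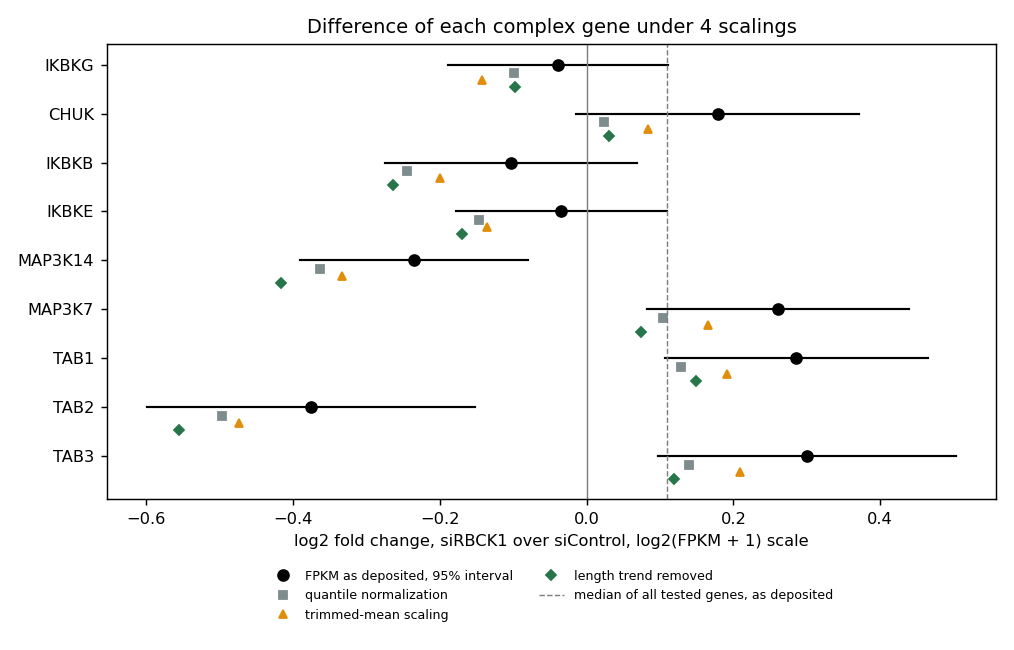
Log2 fold change, siRBCK1 over siControl, on the log2(FPKM + 1) scale (horizontal axis) for each complex gene, with circles and 95% intervals for FPKM as deposited and smaller marks for quantile normalization, trimmed-mean scaling and removal of the length trend. TAB2 and MAP3K14 stay under 0 with each scaling, whereas MAP3K7, TAB1 and TAB3 move toward 0 with each of the 3 others.

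With FPKM as deposited, the median tested gene had a log2 fold change of 0.11. This median was 0.01 with quantile normalization, 0.02 with trimmed-mean scaling and 0.00 with the length trend removed. Among all calls, 4103 were higher and 1899 lower as deposited. With quantile normalization 2787 were higher and 2703 lower. Trimmed-mean scaling gave 2861 higher and 2731 lower calls, and removal of the length trend gave 2765 and 2903. None of the 9 complex genes was higher at an adjusted p under 0.05 in limma with these 3 scalings. With trimmed-mean scaling 3 of them were higher at an unadjusted p under 0.05, and with the other scalings 0. The lower calls were 3, 3 and 4 of 9 in the same order of scalings. Against the median of all genes, the 3 rises were thus small, and the falls of TAB2 and MAP3K14 were larger than as deposited.

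A ratio of 2 genes within a library is not affected by the scaling of that library. The ratio of TAB2 to TAB3, the pair of adaptors that bind the same chains, was 1.592, 1.722 and 1.614 in siRBCK1 cells, against 2.809, 3.054 and 2.467 in siControl cells. The ranges were far apart, with means of 1.64 ± 0.0697 and 2.78 ± 0.295 (SD, n = 3 each). The difference in the mean log2 ratio was -0.75. An exact permutation test, two-sided, gave p = 0.1, the smallest value that 3 against 3 libraries allow, and the value adjusted over the 4 ratios computed was 0.133. The difference stayed between -0.84 and -0.68 when each library was left out in turn, and was -0.75 after removal of the length trend.

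The ratio of TAB1 to the sum of TAB2 and TAB3 was 0.437, 0.522 and 0.508 in siRBCK1 cells, against 0.304, 0.357 and 0.389 in siControl cells. The groups did not overlap, with a difference of 0.49 in the mean log2 ratio (exact permutation p = 0.1, adjusted 0.133). Of the IKK subunits, the ratio of CHUK to IKBKB was 0.859, 0.892 and 0.826 in siRBCK1 cells, against 0.797, 0.651 and 0.633 in siControl cells. IKKα mRNA was thus higher relative to IKKβ mRNA in each siRBCK1 library than in any control, by 0.32 in the mean log2 ratio (exact permutation p = 0.1, adjusted 0.133). The ratio of IKBKG to the sum of CHUK and IKBKB was 1.801, 2.016 and 1.812 in siRBCK1 cells, against 1.726, 1.899 and 2.282 in siControl cells. Here the groups overlapped (exact permutation p = 0.7). None of the 4 ratios could reach an exact p under 0.1 at this number of libraries.

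**Figure D3:**
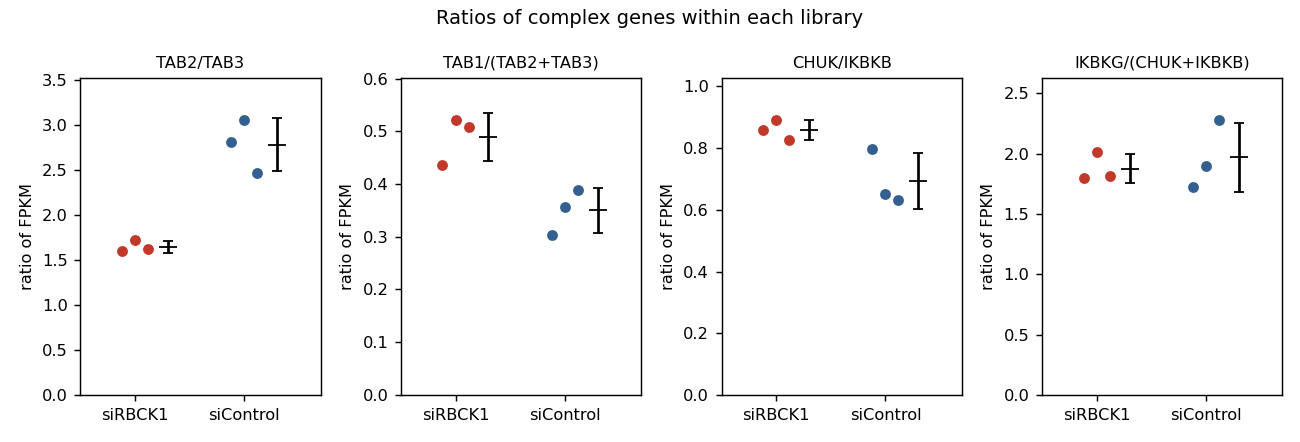
Ratios of FPKM within each library (vertical axes, from 0) for the 3 siRBCK1 libraries (left, red) and the 3 siControl libraries (right, blue), with the mean ± SD beside the points. The TAB2 to TAB3 ratio lies between 1.592 and 1.722 in siRBCK1 cells and between 2.467 and 3.054 in siControl cells, while the NEMO to kinase ratio overlaps.

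Transcript length moved with the difference between the groups. Over the 11076 tested genes with a length in GENCODE 29, Spearman's rho between length and log2 fold change was 0.241, across genes, which are not independent replicates. With the genes cut into 4 equal bins from the shortest to the longest, the median log2 fold change was -0.01, 0.09, 0.16 and 0.19. TAB3 (6671 nt) and MAP3K7 (4911 nt) belonged to the longest bin, TAB1 (3237 nt) to the next and IKBKG (2069 nt) to the second shortest. TAB2 (4553 nt) and MAP3K14 (4583 nt) were also long, near the upper end of their bin, and were lower. The part of length in the differences of MAP3K7, TAB1 and TAB3 was not tested beyond the fit with the length trend removed, in which none of them passed.

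**Figure D4:**
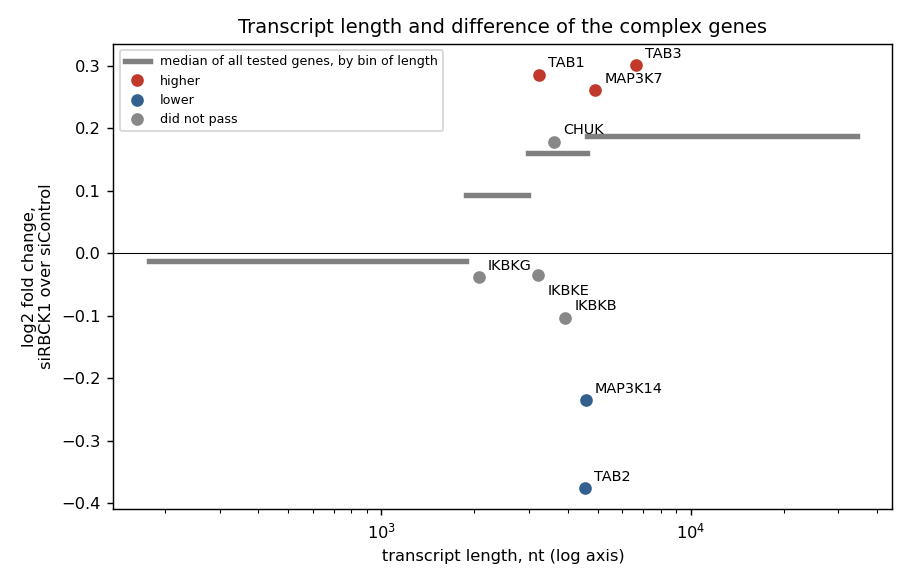
Transcript length in nt (horizontal log axis) and log2 fold change, siRBCK1 over siControl (vertical axis), of the 9 complex genes, coloured by call, with grey bars for the median of all tested genes in each of the 4 bins of length. TAB3 and MAP3K7 lie above the median of the longest bin (0.19), whereas TAB2 and MAP3K14 lie well under the median of theirs (0.16).

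The promoters of these genes were read for the core of the ETS motif, CCGGAAGT, on both strands, in the 250 bases before each transcription start. The sequences come from RefSeq on GRCh38.p14, whose promoter table held 8 of the 9 genes. The pair below is shown because CHUK and MAP3K7, the shared kinase and TAK1, both carry the ETS core close to the start. A start of IKBKG also holds it, and that sequence is not shown. They are given 5′ to 3′ on the gene's strand, with the core in capitals. The first is at chr10:100229597-100229846, minus strand, with the core at position -45 from the start. The second is at chr6:90587073-90587322, minus strand, with the core at position -27.
CHUK: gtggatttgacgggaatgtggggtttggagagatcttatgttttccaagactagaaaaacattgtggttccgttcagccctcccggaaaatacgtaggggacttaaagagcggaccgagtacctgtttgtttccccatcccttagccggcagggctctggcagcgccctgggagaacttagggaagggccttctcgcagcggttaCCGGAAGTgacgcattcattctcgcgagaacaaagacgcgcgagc
MAP3K7: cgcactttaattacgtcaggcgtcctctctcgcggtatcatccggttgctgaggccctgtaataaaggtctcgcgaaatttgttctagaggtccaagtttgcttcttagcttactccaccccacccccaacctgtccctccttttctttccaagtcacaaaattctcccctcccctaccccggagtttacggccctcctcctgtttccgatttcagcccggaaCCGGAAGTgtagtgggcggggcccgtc

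The ETS core was found in 1127 of 27305 genes with a promoter (4.13%) and in 6.68% of the listed genes with a promoter. The promoters of IKBKE, TAB1, TAB2, TAB3 and MAP3K14 did not hold it in these windows. Of these carriers, MAP3K7 was higher, and CHUK and IKBKG did not pass. A match of letters is a description and not a site of binding.

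The 3′ UTRs of the 9 complex genes were also read for the 7-base sequences CCTTGCA and ATCAGGA. These were chosen because genes carrying them were lower, relative to genes without them, in earlier results of these data. The first occurs in the 3′ UTR of 9.35% of 11059 tested genes and the second in 9.54%. The median log2 fold change of carriers was 0.05 for the first and 0.08 for the second, beside 0.12 and 0.11 without them. Of carriers, 26.1% and 21.7% were called lower, beside 16.1% and 16.6% of genes without them. Because of that choice, the direction of their carriers in these libraries is no test. Of the 9 complex genes, TAB1 (position 785 of its 3′ UTR) holds the first and TAB2 (position 1386) the second, shown in capitals.
TAB1: gctggtgcctgCCTTGCAttttccttctg
TAB2: atattcagatgATCAGGAatgtatataac

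TAB2, with the second sequence, was lower, and TAB1, with the first, was higher. The remaining 7 complex genes hold neither.

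The genes whose levels over the 6 libraries were most like those of TAB2 were RAPH1 (Pearson's r = 0.993), ABHD6 (0.991) and CSTF2 (0.989), among 7803 genes with a mean of at least 5 FPKM. RAPH1 encodes lamellipodin, which acts on actin at the cell edge. It averaged 7.85 ± 0.545 FPKM in siRBCK1 cells and 9.51 ± 1.02 FPKM in siControl cells (SD, n = 3 each), with a log2 fold change of -0.25. ABHD6, a lipid hydrolase, and CSTF2, a factor of mRNA 3′ end cleavage, had log2 fold changes of -0.11 and -0.10, and neither passed (limma adjusted p = 0.176 and 0.202). These correlations span libraries of both groups and are given as a description.

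The other genes of the pathway were set out in 8 lists by role, with 66 genes listed and 61 tested. Of these, 15 were higher and 19 were lower, with a median log2 fold change of 0.00, against 0.11 over all tested genes. As shares, 24.6% were higher and 31.1% lower, beside 36.8% and 17.1% of all tested genes. The same shares of all tested genes apply beside the counts of each list below. Each list holds only 4 to 12 tested genes, and no list was tested as a set. The thresholds of an unadjusted p under 0.05 with a change over 1.5-fold were passed by 8 of the 61 (13.1%). With quantile normalization 13 were higher and 26 lower, with trimmed-mean scaling 8 and 24, and with the length trend removed 10 and 28. Of the 34 calls, 21 kept their direction and passed in each alternative that tested the gene. The genes called higher or lower by name in the lists below are among those 21, except NFKBIA, CCL20, CXCL1 and SOD2. TBK1, given above, is not among them.

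Of the 11 enzymes and subunits that write ubiquitin chains, 2 were higher and 5 were lower (median -0.00). RBCK1 itself is among the lower ones. The LUBAC subunit SHARPIN was at 87.8, 93.09 and 86.19 FPKM in siRBCK1 cells, against 115.32, 110.93 and 130.23 FPKM in siControl cells, a log2 fold change of -0.41 (limma adjusted p = 0.000474). UBE2V1, a partner of the enzyme that makes chains linked through lysine 63, was lower by -0.38. In the other direction, TRAF2, the adaptor that recruits cIAP ligases to the TNF receptor, was higher by 0.38. Of the 7 genes that remove or bind chains as brakes, 2 were lower and 0 were higher (1 at an unadjusted p under 0.05 in limma), with a median of -0.12. TNIP1, which binds linear chains beside A20, was lower by -0.27.

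Of the 8 receptor-proximal adaptors, 3 were higher and 2 lower (median 0.16). The largest difference was that of TRAF3, which in resting cells holds NIK for degradation. It stood at 7.72, 7.83 and 7.51 FPKM in siRBCK1 cells, against 3.97, 3.91 and 3.56 FPKM in siControl cells, with a log2 fold change of 0.85 (limma adjusted p = 1.19e-05). The mRNA of the negative regulator of NIK was thus at 202% of the mean in siControl cells, and that of NIK was lower. A link between these mRNA levels was not tested. MYD88, the adaptor of Toll-like and IL-1 receptors, was lower, at 22.12, 19.61 and 20.42 FPKM in siRBCK1 cells, against 33.13, 34.08 and 34.79 FPKM in siControl cells (log2 fold change -0.69).

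Of the 8 IKK substrates and NF-κB subunits, 1 was higher and 3 were lower (median -0.10). NFKB2, whose product p100 is processed on the NIK route, was at 56.25, 67.67 and 60.32 FPKM in siRBCK1 cells, against 87.06, 82.53 and 94.94 FPKM in siControl cells. The groups did not overlap, and the log2 fold change was -0.52 (limma adjusted p = 0.000273). The IκB genes went in both directions, with NFKBIB higher by 0.85, NFKBIE lower by -0.56 and NFKBIA lower by -0.19. For NFKBIA the groups overlapped (limma adjusted p = 0.0322), and it passed in 6 of the 13 alternatives. NFKBIB was at 43.2, 47.48 and 42.86 FPKM in siRBCK1 cells, against 27, 20.86 and 24.99 FPKM in siControl cells.

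In the group of TBK1 and its adaptors, 1 of 4 was higher and 1 lower (median -0.03). The higher one was TANK, which links TBK1 and IKKε to TRAF proteins, with 18.01 ± 0.551 FPKM in siRBCK1 cells and 13.2 ± 1.71 FPKM in siControl cells (SD, n = 3 each) and a log2 fold change of 0.43. Of the 7 tested kinases that act after TAK1, 3 were higher and 0 lower (0 at an unadjusted p under 0.05 in limma), with a median of 0.12, close to that of all genes. Among them MAPK14, which encodes p38α, stood at 35.16, 35.2 and 35.58 FPKM in siRBCK1 cells, against 23.86, 24.67 and 18.51 FPKM in siControl cells (log2 fold change 0.65). MAP2K7, which activates JNK, was higher by 0.32. Of the 4 folding and scaffold genes of IKK, 2 were higher and 1 lower (median 0.10). HSP90AA1, an HSP90 chaperone gene, was higher by 0.28, and ERC1, a scaffold that has been tied to the IKK complex, was lower by -0.40.

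The NF-κB target genes went in both directions. The activity of the kinases was not measured, and its part in these levels was not tested. Of the 12 tested targets, 3 were higher and 5 were lower, and the median log2 fold change was 0.01. This median was under 0 with quantile normalization (-0.12), with trimmed-mean scaling (-0.08) and with the length trend removed (-0.14). The median of all tested genes moved down as well, from 0.11 as deposited to 0.01, 0.02 and 0.00 in the same order. The interleukin gene IL1B showed the largest difference, at 35.11, 30.99 and 33.56 FPKM in siRBCK1 cells, against 72.33, 69.34 and 73.12 FPKM in siControl cells, or 46.4% of the mean in siControl cells (log2 fold change -1.09, limma adjusted p = 4.30e-07). IL1A was lower by -0.74, the transcription factor gene IRF1 by -0.61 and the chemokine gene CXCL8 by -0.49. The chemokine gene CCL20, named here after its values were seen, was lower by -0.37 (limma adjusted p = 0.0247). Its means were low, at 0.843 FPKM in siRBCK1 cells and 1.41 FPKM in siControl cells. The groups overlapped for CCL20, and it passed in 5 of the 9 alternatives that tested it. The 3 higher targets, also named after their values were seen, were IL6 (0.30), the chemokine gene CXCL1 (0.23) and SOD2 (0.16). SOD2 encodes the mitochondrial superoxide dismutase. IL6 was at 64.5, 65.87 and 69.33 FPKM in siRBCK1 cells, against 52.02, 54.17 and 55.14 FPKM in siControl cells, and it passed in each of the 13 alternatives. CXCL1 did not pass with trimmed-mean scaling (limma adjusted p = 0.0952). SOD2 passed in 6 of the 13 alternatives, and lost its call without siRBCK1 replicate 1 (limma adjusted p = 0.103), siRBCK1 replicate 3 (0.107) or siControl replicate 1 (0.0920). The targets CCL2, TNF, LTB and PTGS2, and the kinase gene MAP2K6 of the list above, did not reach the FPKM minimum and so have no test.

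**Figure D5:**
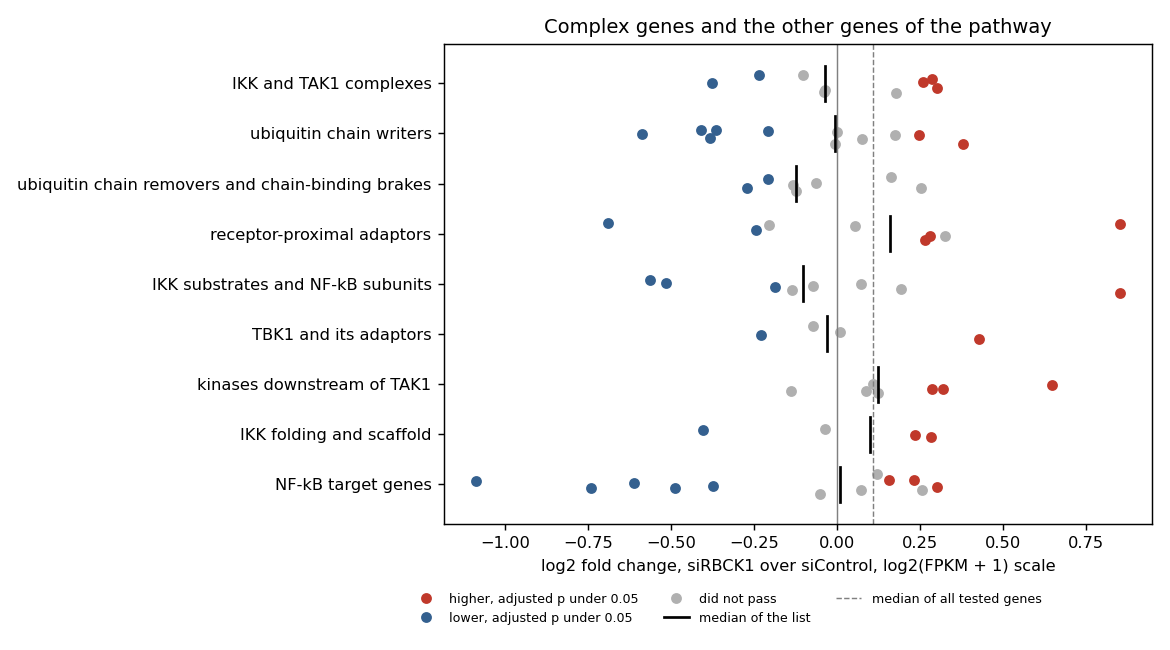
Log2 fold change, siRBCK1 over siControl, on the log2(FPKM + 1) scale (horizontal axis) of the complex genes (top row) and of the 8 lists of other pathway genes, with 1 point per tested gene, coloured by call, and a black bar at the median of each list. The complex genes lie between -0.38 and 0.30, a narrower span than that of the receptor-proximal adaptors (-0.69 to 0.85) or the NF-κB target genes (-1.09 to 0.30).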

How the data were processed

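RNA of MDA-MB-231 cells was sequenced on the BGISEQ-500 platform 48 h after transfection, with 3 libraries each for siRBCK1 and siControl. The deposited values are FPKM with 2 decimals, made by the authors on the genome build GRCh38 named in the submitters' processing notes. The aligner, the annotation and any use of strand in counting were not given in the sources used here. Depth is unknown, and no count test was run. The table of siRBCK1 replicate 2 names replicate 1 in its header. Only 0.548% of tested genes had identical values in both, so they were treated as separate libraries. Correlations of log2 values were at least 0.9949 within a group and at most 0.9859 between groups.

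From these values log2(FPKM + 1) was computed for the 11135 genes that reached 1 FPKM in 3 or more libraries. The test was limma (version 3.58.1, R 4.3.3), two-sided, with a trend on mean level, and p-values were adjusted over all tested genes by the Benjamini-Hochberg method. For genes with low values, fold changes on this scale are understated. Ratios within a library were tested with an exact permutation test. The scripts were tested on simulated data.

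Alternatives were quantile normalization, a pseudocount of 0.1, a filter at 5 FPKM or none, scaling to a mean trimmed by 30%, a replicate block, removal of the trend with GENCODE 29 transcript length, and leaving out each library in turn. Symbols were matched for 17022 gene numbers and not for 127. All 9 complex genes are named, and of each list up to 4 called genes by size of change, with RBCK1 and TBK1. Of the NF-κB targets, all called genes are named. The 3 genes most like TAB2, the complex gene with the largest change, were taken by correlation. The members, lists and motifs were chosen with earlier results of these data known. Some promoter matches are not reported here.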

Additional observations from a re-analysis of the deposited data

How the results depend on the processing

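The calls of the complex genes changed with the scaling and with single libraries. With quantile normalization, trimmed-mean scaling and removal of the length trend, 0 of the 9 complex genes were higher in limma (0, 3 and 0 at an unadjusted p under 0.05). With removal of the length trend 4 were lower, and 2903 of all tested genes were lower. With trimmed-mean scaling 8 of the other pathway genes were higher. Leaving out each library in turn gave 1 to 3 complex genes higher and 1 to 2 lower. The counts were lowest without siRBCK1 replicate 1 (1 higher and 1 lower), and without siRBCK1 replicate 3 they were 2 higher and 1 lower. Calls over all tested genes were fewer there too, with 3217 higher and 1538 lower without siRBCK1 replicate 1 and 3061 and 1479 without siRBCK1 replicate 3, against 4103 and 1899 with all libraries. TAB2 passed in all 13 alternatives, MAP3K14 in 11, TAB1 and TAB3 in 9 each and MAP3K7 in 8. Leaving out libraries, the log2 fold change ran from -0.0776 to 0.00495 for IKBKE (highest without siControl replicate 2) and from -0.110 to 0.00817 for IKBKG (highest without siControl replicate 3). The difference in the log2 ratio of IKBKG to CHUK and IKBKB ran from -0.152 to 0.0495 (highest without siControl replicate 3), and was 0.0341 with the length trend removed, so the sign of these values changed. The causes of these changes were not tested.

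With a replicate block, 3 complex genes were higher and 2 lower, as without it, and 3812 of all tested genes were higher and 1739 lower. Deviations from the group means correlated at -0.06, -0.19 and -0.04 between libraries with the same number. With 3 libraries per group these values cannot decide whether the numbers pair the samples, and the labels do not say so. Read totals are unknown, 3 libraries per group cannot give an exact p under 0.1 for a ratio, and a p that misses the threshold does not show that a gene did not differ.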
